A study of Homo sapiens with 24 samples.

Results

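The proteasome genes described here are 37 of 57992 genes counted, for the subunits of the 26S proteasome, its activators and its maturation factor. They were chosen by gene symbol and not by a cutoff on a measured value, but with earlier results of these data known. They fall into 5 groups by role. The 20S core particle has 7 alpha subunits (PSMA1 to PSMA7) and 7 beta subunits (PSMB1 to PSMB7). The 19S regulatory particle has 6 ATPases (PSMC1 to PSMC6) and 12 subunits that are not ATPases (ADRM1 and PSMD1, PSMD2, PSMD3, PSMD4, PSMD6, PSMD7, PSMD8, PSMD11, PSMD12, PSMD13 and PSMD14). The remaining 5 are the activators PSME1 to PSME4 and the maturation factor POMP. Each of the 37 symbols had 1 row in both count tables.

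The cells were K562, an established line of human chronic myelogenous leukaemia with erythroid features, in which CRISPR interference was turned on with 50 ng/ml doxycycline. The guide sgDDX3 was aimed at DDX3X, the gene of an RNA helicase of translation initiation, and sgGal4 was the control guide. Cytosolic RNA and ribosome footprints were each sequenced on 3 occasions, day 0, day 3 and day 14. Every one of the 12 groups of guide, day and assay has 2 libraries, 24 in all. The comparison asks what the knockdown did to proteasome mRNAs and to their translation, early and late. Doxycycline is named for the samples of day 0 too, without a word on whether those cells had yet received it. Nothing says whether either line was a clone, or whether replicates came from separate cultures. The p-values therefore reflect only the spread of these libraries, which may be technical.

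The 26S proteasome degrades proteins that carry ubiquitin chains. Its 20S core is a stack of rings in which the outer alpha rings form a gate and the inner beta rings hold the proteolytic sites, with PSMB5, PSMB6 and PSMB7 as the catalytic subunits. The 19S particle binds ubiquitin, removes it, and unfolds the substrate with a ring of ATPases. POMP is needed to assemble the beta ring. PSME1 and PSME2 together form the PA28 cap, which, like the immunoproteasome subunits PSMB8, PSMB9 and PSMB10, is known to be induced by interferon. Transcription of subunit genes is known to be raised together by NRF1, the product of NFE2L1, through antioxidant response elements when proteasome activity falls.

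Total counts ran from 10266619 to 43256563 in the RNA libraries and from 6223963 to 15240512 in those of footprints. The proteasome genes took 0.331% to 0.415% of RNA counts and 0.570% to 0.732% of footprint counts. As a check of the labels, DDX3X RNA differed from the control by -0.21 (log2) at day 0, -2.29 at day 3 and -0.72 at day 14. The erythroid markers GATA1 and TFRC were at 162.9 or more and 633 CPM or more (counts scaled to a library of 1000000) in every RNA library, and MS4A1, S100A8, MPO, PF4, KRT5 and COL1A2 were at 0 in all 12. Fewer cells of a type and less RNA per cell cannot be told apart in such bulk samples. All 37 genes passed the filter on low counts in RNA and 36 in footprints; PSMA2 did not, with 53 footprint counts over 12 libraries. Reads of PSMA2, PSMA6 and PSMC1 could be split with processed pseudogenes, so the values of these genes are uncertain. The pseudogenes held 2632%, 78.3% and 280.4% of the gene's own footprint count. For PSME2 (22.0%) and PSMA1 (19.8%) the pseudogenes held less, and the footprint values of both genes are uncertain in part. Overlapping genes on either strand make PSMA3, PSMB3, PSMB7, PSMC2, PSMC5, PSMD1, PSMD3, PSMD6, PSMD13, PSMD14 and PSME2 uncertain in part, since the strand setting of the counting is not given in the sources used here.

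Promoters are shown for 4 genes picked from the RNA results. PSMB3 and PSMA3 were among several genes that were lower with sgDDX3 at both later days. PSME1 was higher at both, and PSME2 is its partner in the PA28 cap. The windows are the 250 bases up to the start of PSMB3 (chr17:38752491-38752740, plus strand), PSMA3 (chr14:58244593-58244842, plus strand) and PSME2 (chr14:24146611-24146860, minus strand), and for PSME1 (chr14:24135959-24136208, plus strand) a window that ends 15 bases after it. They are RefSeq sequences of GRCh38.p14, written 5′ to 3′ on the strand of the gene. The window of PSME1 was moved and takes in an interferon-stimulated match after the start. A window up to the start, as for the other genes, would leave that match out. Capitals mark matches, on either strand, to the core of the antioxidant response element (TGACNNNGC), the CCAAT box (CCAAT), the core of the interferon-stimulated response element (GAAA, any pair of letters, GAAA) or the core of the interferon gamma activated site (TTCNNNGAA).
PSMB3: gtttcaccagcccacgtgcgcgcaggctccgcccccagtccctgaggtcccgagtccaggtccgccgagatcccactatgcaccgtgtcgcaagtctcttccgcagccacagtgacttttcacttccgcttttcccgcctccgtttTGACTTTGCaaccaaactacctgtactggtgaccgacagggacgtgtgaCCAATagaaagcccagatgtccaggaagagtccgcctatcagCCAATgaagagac
PSMA3: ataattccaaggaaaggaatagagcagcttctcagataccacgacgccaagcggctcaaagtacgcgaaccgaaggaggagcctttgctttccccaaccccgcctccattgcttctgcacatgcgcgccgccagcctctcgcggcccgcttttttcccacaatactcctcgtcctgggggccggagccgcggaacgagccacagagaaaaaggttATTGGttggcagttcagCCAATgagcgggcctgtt
PSME1: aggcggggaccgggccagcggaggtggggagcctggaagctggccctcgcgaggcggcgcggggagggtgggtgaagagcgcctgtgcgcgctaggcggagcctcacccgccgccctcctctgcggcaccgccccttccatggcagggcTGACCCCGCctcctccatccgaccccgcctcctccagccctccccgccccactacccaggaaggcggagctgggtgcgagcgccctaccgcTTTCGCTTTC
PSME2: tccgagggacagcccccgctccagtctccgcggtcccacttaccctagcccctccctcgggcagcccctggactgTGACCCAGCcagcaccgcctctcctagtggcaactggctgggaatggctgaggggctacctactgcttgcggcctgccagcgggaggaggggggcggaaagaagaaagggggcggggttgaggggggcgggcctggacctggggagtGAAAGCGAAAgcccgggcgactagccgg

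A promoter of 300 bases (250 before the start and 50 after) was found for 32 of the 37 genes; PSMA7, PSMB1, PSMB6, PSMB7 and PSMD4 had none. The antioxidant response core occurred in 9 of 32 (28.1%), against 13.6% of 27305 promoters of the same length, and the 9 were PSMB3, PSMC4, PSMD1, PSMD3, PSMD12, ADRM1, PSME1, PSME2 and PSME4. CCAAT occurred in 16 of 32 (50%), against 35.7%. The interferon-stimulated core occurred in 4 of 32 (12.5%), namely PSMA4, PSMB4, PSME1 and PSME2, against 3.65%, and the gamma activated core also in 4 of 32, namely PSMA2, PSMC4, PSMD3 and PSME3, against 7.88%. In PSMB3 the antioxidant match starts 104 bases before the start site and the CCAAT matches 55 and 13 bases before it. PSMA3 has CCAAT matches on both strands, 35 and 18 bases before the start. Of the other genes lower in RNA at both later days, PSMC6 and POMP had no match of any kind in their promoters. PSMB2 and PSMB5 had CCAAT, PSMA4 had the interferon-stimulated core, and PSMB1 had no promoter to search. Of 15 genes with a promoter that were lower at day 3, 3 had the antioxidant core, 8 CCAAT, 2 the interferon-stimulated core and 1 the gamma activated core. Of 16 that did not pass, 5, 8, 1 and 3 did, and the difference between these groups was not tested. A match is a description of letters and not a site of binding.

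At day 0 no proteasome gene passed in RNA between the guides, but small differences already leaned to lower values with sgDDX3. By edgeR's quasi-likelihood test with Benjamini-Hochberg adjustment, 0 of 37 passed at an adjusted p of 0.05, as did 0.00547% of 18287 genes, 0 reached an unadjusted p of 0.05, and 0 passed with DESeq2. The fitted difference was nonetheless negative in 33 of 37, with a median of -0.06 on the log2 scale against 0.00 over all genes. Both sgDDX3 libraries lay below both sgGal4 libraries in 19 of 37 (51.4%), against 19.2% of all genes. The smallest p belonged to PSME4, the activator PA200, which stood at 176 and 191 CPM with sgDDX3 and 203.5 and 197 CPM with sgGal4 (log2 difference -0.13 ± 0.07 SE). Day 0 values are therefore given beside the later ones for some genes and for the summed levels. The change of the guide difference from day 0 was tested separately for day 3. It was not tested for day 14, so no test sets the day 14 differences against the lean at day 0.

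At day 3 the RNA of the proteasome was lower with sgDDX3 in both of its particles. Of 37 genes 17 were lower and 1 was higher, against 6.39% of all genes lower and 7.68% higher, and the median difference was -0.23 against -0.01 over all genes. The genes that were lower were 5 of 7 beta subunits, 5 of 6 ATPases, 4 of 12 other 19S subunits, 2 of 7 alpha subunits and POMP, and the higher gene was PSME1. Both sgDDX3 libraries were below both controls in 28 of 37 (75.7%), against 27.4% of all genes, and above them in 2, against 26.3% of all genes.

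**Figure D1:**
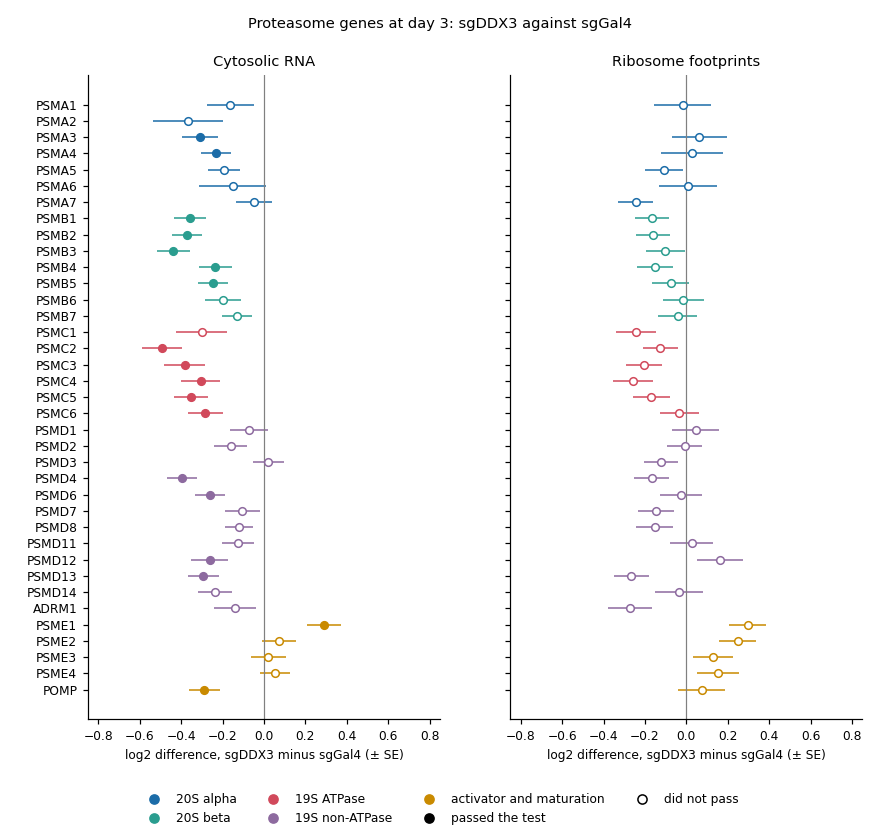
Log2 difference between sgDDX3 and sgGal4 at day 3 for each proteasome gene, with its standard error (bars), in RNA (left) and footprints (right). Colours give the role and filled points passed at an adjusted p of 0.05; in RNA 17 filled points lie to the left of 0 and PSME1 to the right, and in footprints none is filled.

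Among the beta subunits the 3 with the smallest p were PSMB3, PSMB2 and PSMB1, all structural rather than catalytic. PSMB3 (chromosome 17, 38752741 to 38764225 of GRCh38) was at 78.2 and 82.3 CPM with sgDDX3 and 101.2 and 117 CPM with sgGal4, a log2 difference of -0.44 ± 0.08 (SE; edgeR adjusted p = 0.000790). At day 0 its libraries had been at 109 and 103 against 105 and 108.5 CPM. The PSMB3 libraries thus overlapped at day 0 and stood apart at day 3. PSMB2 was at 175 and 184 CPM against 216 and 249 CPM (-0.37 ± 0.07; edgeR adjusted p = 0.00125), and its day 0 values of 261 and 265 against 280.3 and 279 CPM did not overlap either. PSMB1 was at 88.5 and 91.5 CPM against 113 and 118 CPM (-0.36 ± 0.08; edgeR adjusted p = 0.00265). Of the catalytic subunits, PSMB5, the target of bortezomib, was lower at 148 and 156 CPM against 175 and 187 CPM (-0.25 ± 0.07), while PSMB6 (-0.20 ± 0.09) and PSMB7 (-0.13 ± 0.07) did not pass.

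The 19S ATPases, which form the unfolding ring, had the lowest median of the 5 groups, -0.33. PSMC2 was at 52.3 and 61.7 CPM with sgDDX3 and 76.7 and 82.8 CPM with sgGal4 (-0.49 ± 0.10; edgeR adjusted p = 0.00162). PSMC5 was at 53.2 and 61.1 CPM against 72.6 and 72.0 CPM (-0.35 ± 0.08; edgeR adjusted p = 0.00538). PSMC3 was at 106 and 119.5 CPM against 141 and 152.5 CPM (-0.38 ± 0.10; edgeR adjusted p = 0.0112). In each of these 3 genes the knockdown libraries lay below both controls, with the lower value in sgDDX3 replicate 1. PSMC6 (-0.28 ± 0.09) and PSMC4 (-0.31 ± 0.09) were lower too, and PSMC1, a gene with 13 pseudogenes, did not pass (-0.30 ± 0.12).

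Among the other 19S subunits PSMD4, a receptor for ubiquitin chains, had the smallest p of the 37. It was at 102 and 103.5 CPM with sgDDX3 and 136 and 133 CPM with sgGal4 (-0.39 ± 0.07; edgeR adjusted p = 0.000737), from 121 and 121 against 123.5 and 122 CPM at day 0. PSMD13 of the lid was at 71.6 and 77.5 CPM against 89.5 and 92.8 CPM (-0.29 ± 0.07; edgeR adjusted p = 0.0104). PSMD6, also of the lid, was at 67.5 and 68.4 CPM against 78.3 and 85.1 CPM (-0.26 ± 0.07; edgeR adjusted p = 0.0201). The knockdown libraries of all 3 were below the controls. PSMD12 was the 4th that passed (-0.26 ± 0.09). The other ubiquitin receptor, ADRM1 (-0.14 ± 0.10), the deubiquitinase PSMD14 (-0.24 ± 0.08) and the scaffold subunits PSMD1 (-0.07 ± 0.09) and PSMD2 (-0.16 ± 0.08) did not pass, and PSMD3 (0.02 ± 0.07) had the opposite sign to the median.

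Of the alpha subunits 2 were lower. PSMA3 was at 54.3 and 50.4 CPM with sgDDX3 and 62.0 and 69.1 CPM with sgGal4 (-0.31 ± 0.09; edgeR adjusted p = 0.0209). PSMA4 was at 122 and 128.5 CPM against 142.5 and 152 CPM (-0.23 ± 0.07; edgeR adjusted p = 0.0352). Their groups did not overlap. POMP, the maturation factor, was at 95.4 and 90.0 CPM against 109 and 119 CPM (-0.29 ± 0.08; edgeR adjusted p = 0.0137).

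The PA28 gene PSME1 moved the other way. Its RNA was at 49.9 and 51.7 CPM with sgDDX3 and 42.6 and 39.9 CPM with sgGal4 (0.29 ± 0.08; edgeR adjusted p = 0.0222). The other activator genes, PSME2 (0.07 ± 0.08), PSME3 (0.02 ± 0.09) and PSME4 (0.05 ± 0.07), also had the sign opposite to the median and did not pass. The activators were thus not among the genes that were lower. The summed RNA of PSME1 to PSME4 and POMP stood at 100.1% of the control, from 93.65% at day 0.

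How many genes passed at day 3 depended on single libraries. Of the 18 genes that passed, 7 did so without sgDDX3 replicate 1, 11 without sgDDX3 replicate 2, 9 without sgGal4 replicate 1 and 5 without sgGal4 replicate 2, each fit assuming that the lone remaining library varied like the other groups. Without sgDDX3 replicate 1 the calls were lost for PSMA4 (-0.19), PSMB4 (-0.13), PSMB5 (-0.20), PSMC2 (-0.36), PSMC3 (-0.29), PSMC4 (-0.17), PSMC5 (-0.23), PSMD6 (-0.24), PSMD12 (-0.33), PSMD13 (-0.22) and PSME1 (0.33). Without sgDDX3 replicate 2 they were lost for PSMA3 (-0.26), PSMA4 (-0.27), PSMC6 (-0.22), PSMD6 (-0.27), PSMD12 (-0.20), PSME1 (0.27) and POMP (-0.25). Without sgGal4 replicate 1 they were lost for PSMA4 (-0.27), PSMB4 (-0.31), PSMB5 (-0.29), PSMC4 (-0.36), PSMC5 (-0.34), PSMC6 (-0.35), PSMD12 (-0.35), PSMD13 (-0.31) and PSME1 (0.35). Without sgGal4 replicate 2 they were lost for PSMA3 (-0.23), PSMA4 (-0.18), PSMB2 (-0.27), PSMB4 (-0.15), PSMB5 (-0.20), PSMC3 (-0.33), PSMC4 (-0.25), PSMC6 (-0.22), PSMD6 (-0.20), PSMD12 (-0.18), PSMD13 (-0.27), PSME1 (0.25) and POMP (-0.23). PSMB1, PSMB3 and PSMD4 passed in every alternative run, none of the 18 changed sign, and the median over the 37 stayed between -0.27 and -0.18.

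At day 14, when the difference in DDX3X RNA had narrowed, 10 of 37 genes were lower and 1 was higher, against 6.18% of all genes lower and 8.44% higher. The median was -0.21 against -0.01 over all genes. The beta subunits again had 5 of 7 lower, the alpha subunits 2 of 7, and the ATPases and the other 19S subunits 1 each. Both sgDDX3 libraries lay below both controls in 20 of 37 (54.1%), against 25.6% of all genes.

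**Figure D2:**
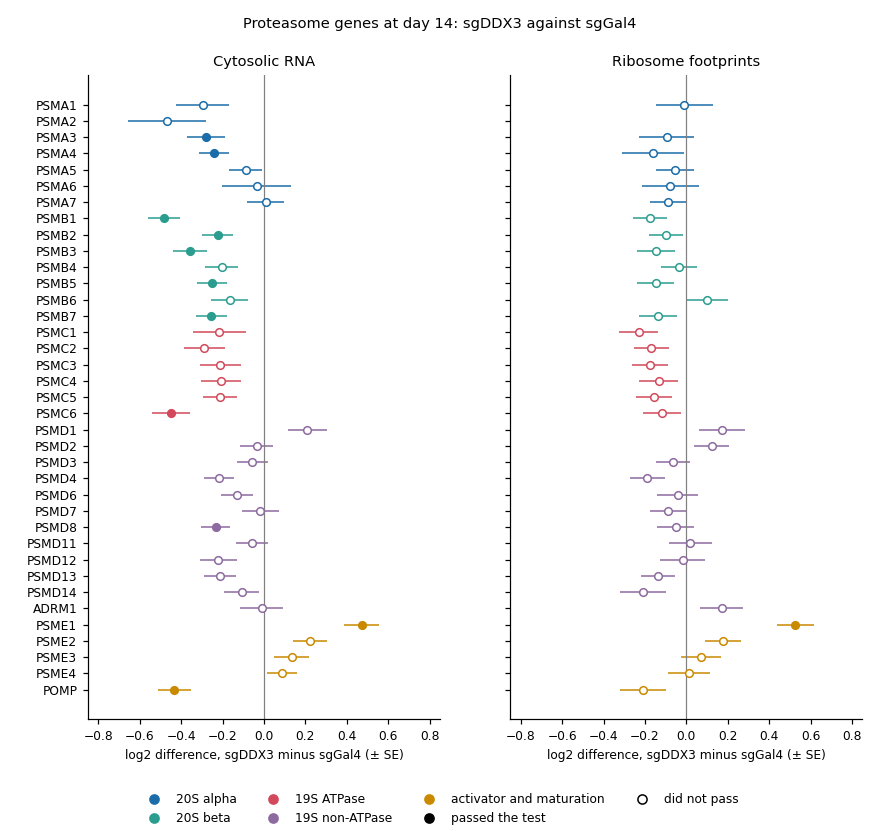
Log2 difference between sgDDX3 and sgGal4 at day 14 for each proteasome gene with its standard error (bars), in RNA (left) and footprints (right). Colours give the role and filled points passed at an adjusted p of 0.05; PSME1 is filled to the right of 0 in both assays, and PSMB1, PSMC6 and POMP lie farthest to the left among the filled RNA points.

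PSMB1 (chromosome 6, 170535120 to 170553307) had the smallest p, at 73.7 and 83.9 CPM with sgDDX3 and 107 and 113 CPM with sgGal4 (-0.48 ± 0.08; edgeR adjusted p = 0.000215). POMP (chromosome 13, 28659130 to 28678959) was at 85.2 and 78.9 CPM against 108 and 113 CPM (-0.43 ± 0.08; edgeR adjusted p = 0.000659). PSMC6 (chromosome 14, 52707200 to 52728590) was at 36.6 and 41.8 CPM against 52.8 and 54.0 CPM (-0.45 ± 0.09; edgeR adjusted p = 0.00158). The knockdown libraries of these 3 genes all lay below the controls, and each of the 3 passed in every alternative. PSMC6 was the only ATPase that passed at this day.

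PSMB3 was at 80.0 and 76.3 CPM against 96.1 and 103.6 CPM (-0.36 ± 0.08; edgeR adjusted p = 0.00528). PSMB5 was at 151 and 152 CPM against 182 and 177.5 CPM (-0.25 ± 0.07; edgeR adjusted p = 0.0249). PSMB7, the catalytic subunit of trypsin-like activity, was at 141 and 122.5 CPM against 161 and 153 CPM (-0.25 ± 0.07; edgeR adjusted p = 0.0251). All these beta subunits had groups that did not overlap. Also lower were PSMB2 (-0.22 ± 0.07), PSMA4 (-0.24 ± 0.07), PSMA3 (-0.28 ± 0.09) and the 19S subunit PSMD8 (-0.23 ± 0.07). PSMD4, which had the smallest p at day 3, had a difference of -0.22 ± 0.07 that did not pass (edgeR adjusted p = 0.0504), and neither did PSMC2 (-0.29 ± 0.10; edgeR adjusted p = 0.0579).

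PSME1 (chromosome 14, 24136194 to 24138962) was higher at 67.9 and 61.9 CPM with sgDDX3 against 49.8 and 44.6 CPM with sgGal4 (0.47 ± 0.08; edgeR adjusted p = 0.000582), and passed in every alternative. PSME2 was at 72.9 and 70.2 CPM against 62.5 and 60.4 CPM and did not pass (0.22 ± 0.08; edgeR adjusted p = 0.0810), although its groups did not overlap. The scaffold subunit PSMD1 had a positive difference too (0.21 ± 0.09; edgeR adjusted p = 0.139).

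Of the 11 genes that passed at day 14, the call was lost without sgDDX3 replicate 1 for PSMA3 (-0.19), PSMB2 (-0.22), PSMB5 (-0.25) and PSMD8 (-0.20). Without sgDDX3 replicate 2 it was lost for PSMA4 (-0.19), PSMB2 (-0.23) and PSMB7 (-0.16). Without sgGal4 replicate 1, when 5 genes passed, it was lost for PSMA3 (-0.31), PSMA4 (-0.18), PSMB2 (-0.24), PSMB5 (-0.23), PSMB7 (-0.22) and PSMD8 (-0.22). Without sgGal4 replicate 2, when 4 passed, it was lost for PSMA3 (-0.25), PSMA4 (-0.31), PSMB2 (-0.21), PSMB3 (-0.30), PSMB5 (-0.27), PSMB7 (-0.29) and PSMD8 (-0.24). The call of PSMA3 was also lost with DESeq2 (-0.28). Without the low-count filter 16 genes passed in place of 11.

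The guide comparisons of day 3 and day 14 share no library. PSMA3, PSMA4, PSMB1, PSMB2, PSMB3, PSMB5, PSMC6 and POMP were lower at both days, 47.1% of the 17 genes that were lower at day 3 and 80% of the 10 at day 14. Over all genes tested the 513 that were lower at both days were 43.9% of 1169 and 45.4% of 1131. PSME1 was higher at both. The sign of the difference was the same at both days for 34 of 37 proteasome genes, and for 12766 of 18287 genes.

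The difference between the guides grew from day 0 to day 3 for 2 proteasome genes by the test of that change. It changed by -0.42 ± 0.11 for PSMB3 (edgeR adjusted p = 0.0387) and by -0.38 ± 0.10 for PSMD4 (edgeR adjusted p = 0.0402), so that 2 of 37 passed in the lower direction, against 1.32% of all genes lower and 2.37% higher. At an unadjusted p of 0.05 the count was 8 lower and 1 higher, but the share of all genes at that p was not taken. The next genes were PSMB1 (-0.32 ± 0.11), PSMC2 (-0.41 ± 0.14) and PSME1 (0.35 ± 0.12), which did not pass. The median change over the 37 was -0.19. Neither call was stable when a library was left out: PSMB3 was lost without sgDDX3 day 0 replicate 1 (-0.38) or replicate 2 (-0.46), sgDDX3 day 3 replicate 1 (-0.37), sgGal4 day 0 replicate 1 (-0.39) or replicate 2 (-0.45), and sgGal4 day 3 replicate 2 (-0.31). PSMD4 was lost without any of the 8 libraries, with values from -0.39 to -0.35. From day 3 to day 14 the difference changed detectably for 0 of 37 genes by edgeR (0.164% of all genes), with 0 lower and 1 higher at an unadjusted p of 0.05 and 0 by DESeq2.

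**Figure D3:**
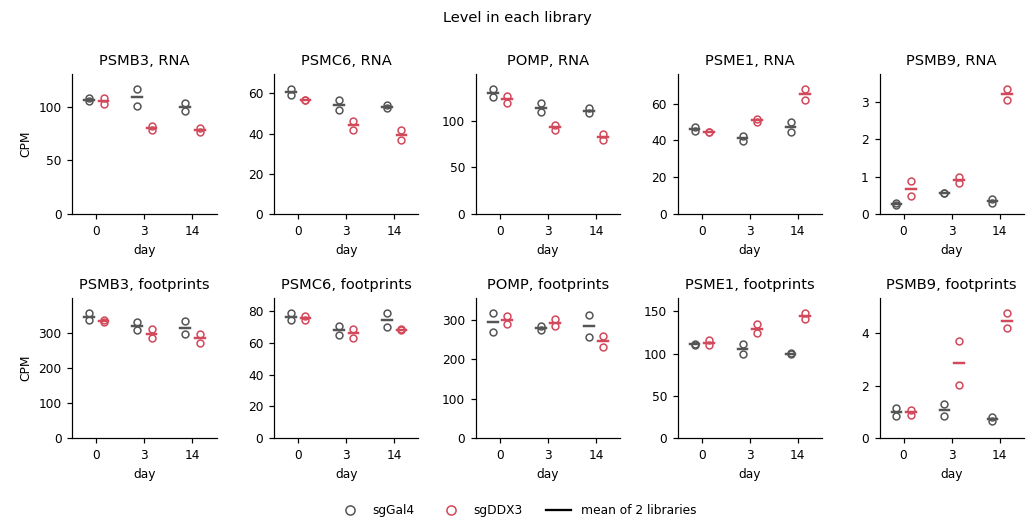
CPM in each library for PSMB3, PSMC6, POMP, PSME1 and PSMB9 by day (0, 3 and 14), with sgDDX3 and sgGal4 in different colours, in RNA (top) and footprints (bottom). In RNA the sgDDX3 points of PSMB3, PSMC6 and POMP lie below the control points at day 3 and day 14 and those of PSME1 above; in footprints the points of PSMB3 and POMP are closer together.

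In ribosome footprints no subunit of the 20S core or of the 19S particle passed the test between the guides at any day. The spread between libraries was wider there, with a common coefficient of variation of 9.99% against 6.13% in RNA. At day 0 by edgeR 0 of 36 passed (0.0101% of all genes; 0 at an unadjusted p of 0.05, 0 by DESeq2), though both sgDDX3 libraries were below both controls in 16 of 36 (44.4%, against 19.3%). At day 3 by edgeR 0 of 36 passed (2.25% of all genes were lower and 1.55% higher), and 0 by DESeq2. At an unadjusted p of 0.05, 6 were lower and 2 higher, without a share of all genes to set beside them. The median was -0.06 against 0.02 over all genes. Both sgDDX3 libraries were below both controls in 15 of 36 (41.7%), against 22.3% of all genes, and above them in 5 (13.9%), against 25.4%.

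PSMB3 is an example of a gene that passed in RNA at day 3 and not in footprints. The test of footprints against RNA, given below, did not pass for any proteasome gene. PSMB3 footprints at day 3 were at 285 and 309 CPM with sgDDX3 and 308 and 329.5 CPM with sgGal4, so the groups overlapped. POMP footprints were at 285 and 301 CPM against 274 and 283 CPM, with both knockdown libraries above both controls. The ATPases had the lowest median footprint difference of the 5 groups, -0.19. PSMC4, for example, was at 113 and 109 CPM against 135 and 130.0 CPM, groups that did not overlap, and did not pass (-0.26 ± 0.09; edgeR adjusted p = 0.154). The smallest p values among the core and lid subunits were those of PSMD13, at 113 and 116 CPM against 134 and 142 CPM (-0.27 ± 0.08; edgeR adjusted p = 0.102), and of PSMA7, at 216 and 219 CPM against 253 and 263 CPM (-0.25 ± 0.09; edgeR adjusted p = 0.138). These were not detectable as differences at this depth.

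PSME1 footprints at day 3 were at 135 and 124 CPM against 111 and 99.4 CPM (0.30 ± 0.09; edgeR adjusted p = 0.0864). Those of PSME2 were at 148 and 149 CPM against 118 and 132 CPM (0.25 ± 0.09; edgeR adjusted p = 0.145). Both were above the controls without passing. At day 14 PSME1 was the only proteasome gene of 36 that passed in footprints, at 140.4 and 148 CPM against 100.2 CPM or less in both controls (0.53 ± 0.09; edgeR adjusted p = 0.00696), and it passed in every alternative. Of all genes, 2.11% were higher and 1.29% lower. Among the others 2 genes, PSMC1 (-0.23 ± 0.09) and PSMD4 (-0.19 ± 0.08), were lower at an unadjusted p of 0.05, and the median over the 36 was -0.09. The change of the footprint difference between days passed for 0 of 36 genes by edgeR and by DESeq2. This held from day 0 to day 3 (0.121% of all genes passed) and from day 3 to day 14 (0.126%). At an unadjusted p of 0.05, 0 were lower and 3 higher from day 0 to day 3. From day 3 to day 14, 0 were lower and 1 higher. The share of all genes at that p was not taken, here or for PSMC1 and PSMD4 above.

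**Figure D4:**
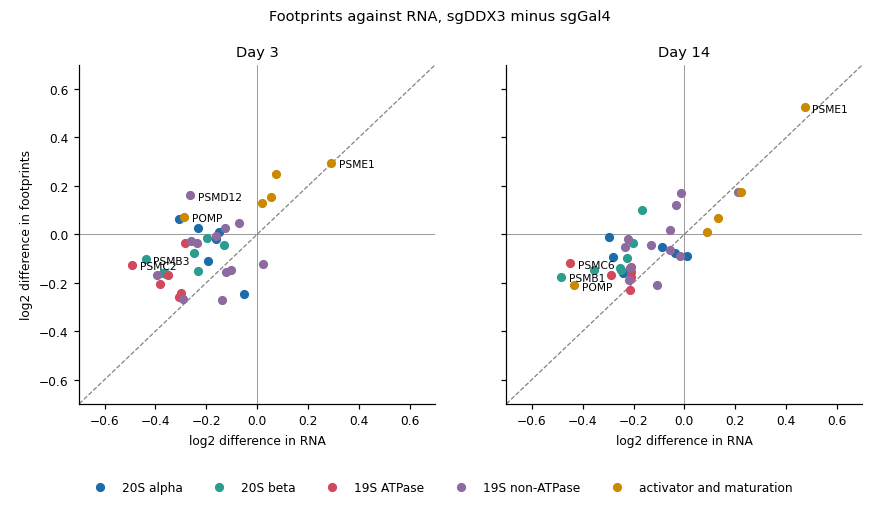
Log2 difference between sgDDX3 and sgGal4 in footprints (vertical axis) against that in RNA (horizontal axis) for each proteasome gene at day 3 (left) and day 14 (right), coloured by role; the dashed line marks equal differences. At day 3 the points of PSMB3, PSMC2, PSMD12 and POMP lie above the line, while PSME1 lies close to it at the upper right on both days.

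Translational efficiency, which sets a gene's footprints against its RNA, did not pass for any proteasome gene. By the interaction of guide and assay in edgeR 0 of 36 passed at day 0 (0.00673% of all genes), day 3 (5.41%) and day 14 (1.72%), and DESeq2 gave 0 at each day. At an unadjusted p of 0.05 there were 0 at day 0, 0 lower and 5 higher at day 3, and 0 lower and 3 higher at day 14. The percentages above are for adjusted p, and the share of all genes at an unadjusted p of 0.05 was not taken. The fitted difference was positive in 16 of 36 genes at day 0, 30 of 36 at day 3 (median 0.13, against 0.03 over all genes) and 27 of 36 at day 14 (median 0.09, against 0.03). The share of all genes with a positive difference was not taken either. The 5 genes at day 3 were PSMD12 (0.41 ± 0.14; edgeR adjusted p = 0.116), PSMB3 (0.32 ± 0.12; edgeR adjusted p = 0.148), PSMC2 (0.35 ± 0.14), POMP (0.34 ± 0.14) and PSMA3 (0.35 ± 0.16), all of them lower in RNA. At day 14 they were PSMB1 (0.32 ± 0.11; edgeR adjusted p = 0.174), PSMC6 (0.34 ± 0.13) and PSMB6 (0.28 ± 0.13). A gene with lower RNA and similar footprints has a positive difference by construction, so this is not separate from the RNA result. From day 3 to day 14 the efficiency difference changed for 0 of 36 genes by edgeR and DESeq2 (0.0269% of all genes), with 0 at an unadjusted p of 0.05.

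In the control cells at day 0 the ratio of footprint CPM to RNA CPM had a median of 1.70 over 36 proteasome genes, against 0.812 over 14853 genes, and 34 of 36 were above the median of all genes. PSMB3 (3.23), PSMB6 (3.21) and PSMB1 (3.12) had high ratios. The activator PSME4 (0.494), PSMA1 (0.714) and PSME3 (0.829) had low ones. The highest ratio, that of PSMA6 (6.85), is uncertain because of its pseudogenes, and so is that of PSMA1. Since footprints come from the coding sequence and RNA reads from the whole transcript, the share of a transcript that is coding moves this ratio between genes.

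The summed level of the 37 genes gives the size of the difference per library. In RNA at day 3 the sums were 3288 and 3502 CPM with sgDDX3 and 3747 and 4022 CPM with sgGal4, 3395 ± 151 against 3885 ± 195 CPM (SD, n = 2 each), or 87.4% of the control. At day 14 they were 3531 ± 169 against 3889 ± 63.1 CPM (SD, n = 2 each), 90.8%. At day 0 they were already 4019 ± 20.0 against 4195 ± 4.41 CPM (SD, n = 2 each), 95.8%. The groups did not overlap at any of the 3 days. By role at day 3, the ATPases stood at 77.8% of the control (353 ± 27.1 against 453 ± 18.5 CPM), the beta subunits at 82.2%, the alpha subunits at 88% and the other 19S subunits at 89.4%. At day 0 they had stood, in the same order, at 95.35%, 96.04%, 97.29% and 96.13%. At day 14 the beta subunits stood at 83.2%, the ATPases at 83.9% and the activators with POMP at 104.6%, the last from 93.65% at day 0.

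**Figure D5:**
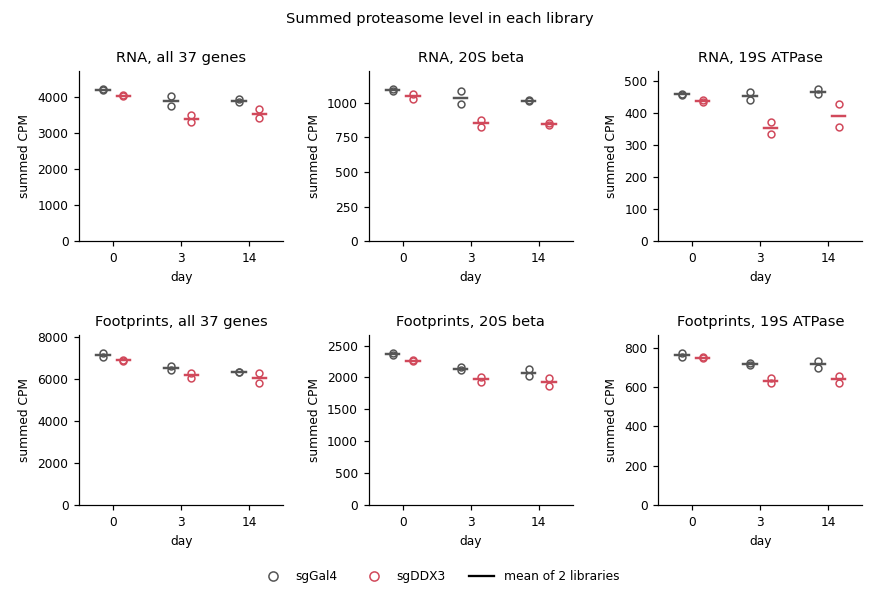
Summed CPM in each library by day (0, 3 and 14) for all 37 proteasome genes, the 20S beta subunits and the 19S ATPases, in RNA (top) and footprints (bottom), with the guides in different colours and the vertical axis starting at 0. For all 37 genes the sgDDX3 libraries lie below the sgGal4 libraries at each day in both assays, and in RNA the group means stand at 95.8%, 87.4% and 90.8% of the control at day 0, day 3 and day 14.

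In footprints the sums were at 96.6% of the control at day 0 (6872 ± 32.3 against 7117 ± 140 CPM), 95.0% at day 3 (6165 ± 160 against 6490 ± 140 CPM) and 95.4% at day 14 (6045 ± 330 against 6338 ± 1.41 CPM; SD, n = 2 each), again without overlap. The footprint sum of the ATPases was at 88.3% at day 3, and that of the activators with POMP at 111.5%. At day 0 they had been at 98.24% and 97.31%. Scaling by total counts gave 90.8% for the footprint sum at day 3.

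The subunits of the immunoproteasome were taken from a list of 5 tissue-specific and immune subunits. Of the 5, 2 could be tested, PSMB9 and PSMB10. PSMB8 and PSMB9 were near the limit of detection. PSMB9, which replaces PSMB6 in the immunoproteasome, was higher at day 14. At day 0 PSMB9 RNA already leaned the same way, at 0.879 and 0.478 CPM with sgDDX3 (21 and 7 counts) against 0.236 and 0.285 CPM with sgGal4 (4 and 4 counts), groups that did not overlap, and did not pass (1.44 ± 0.54; edgeR adjusted p = 0.999). At day 3 it did not pass either (0.64 ± 0.41; edgeR adjusted p = 0.350), nor did the change of its difference from day 3 to day 14 (2.48 ± 0.59; edgeR adjusted p = 0.114). Its RNA at day 14 was at 3.06 and 3.35 CPM with sgDDX3 (36 and 37 counts) and 0.288 and 0.394 CPM with sgGal4 (3 and 12 counts), a fitted log2 difference of 3.11 ± 0.41 (edgeR adjusted p = 2.52e-05). PSMB9 footprints at day 14 were at 4.18 and 4.75 CPM against 0.805 and 0.649 CPM (2.59 ± 0.39; edgeR adjusted p = 0.00315). At day 14 both assays thus showed no overlap between the guides, and both calls passed in every alternative. PSMB9 footprints overlapped between the guides at day 0, at 1.07 and 0.886 against 0.837 and 1.16 CPM (-0.07 ± 0.44). At day 3 they were at 3.71 and 2.03 against 0.840 and 1.29 CPM and did not pass (1.44 ± 0.40; edgeR adjusted p = 0.0673). PSMB10, which replaces PSMB7, did not pass at day 3 in RNA (0.50 ± 0.17; edgeR adjusted p = 0.0579) or footprints (0.63 ± 0.17; edgeR adjusted p = 0.0606). PSMB8 held 5 counts or fewer in each RNA library and was not tested.

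Over time some proteasome genes also fell in RNA in the control cells. These comparisons share the day 0 libraries with each other and their libraries with the guide comparisons, so they are given as values side by side. From day 0 to day 3, 5 of 37 genes fell with sgGal4 (2.27% of all genes fell and 3.41% rose) and 21 of 37 with sgDDX3 (9.42% fell and 11.1% rose). From day 0 to day 14, 8 of 37 fell with sgGal4 (8.55% and 7.7%), and 12 fell and PSME1 rose with sgDDX3 (12.8% and 13.4%).

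With sgGal4 the genes that fell by day 3 were PSMB2 (-0.27 ± 0.07), PSMD1 (-0.32 ± 0.09), PSMD11 (-0.27 ± 0.08), PSMD13 (-0.28 ± 0.07) and PSME4 (-0.34 ± 0.07), and all but PSMB2 and PSME4 were lost when any 1 of the 4 libraries was left out; without sgGal4 day 0 replicate 1 none passed (PSMB2 -0.28, PSMD1 -0.32, PSMD11 -0.24, PSMD13 -0.27, PSME4 -0.33). By day 14 PSME4 had fallen by 0.38 ± 0.07 and passed in every alternative, the only one of the 8 to do so. With sgDDX3, PSMB2 had fallen by 0.56 ± 0.07 at day 3, PSMA3 by 0.49 ± 0.09 and PSMD13 by 0.48 ± 0.07. By day 14 PSMB1 had fallen by 0.60 ± 0.08, PSMA3 by 0.60 ± 0.09 and POMP by 0.58 ± 0.08, and PSME1 had risen by 0.54 ± 0.08. Of the genes that passed with sgDDX3, 9 of 21 at day 3 and 11 of 13 at day 14 passed in every alternative.

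In footprints PSMD13 fell with both guides. With sgGal4 it went from 170.1 and 177 CPM at day 0 to 128 and 130.0 CPM at day 14 (-0.43 ± 0.08; edgeR adjusted p = 0.0178), the only one of 36 that passed (0.93% of all genes fell and 1.54% rose), and the call was lost without any 1 of the 4 libraries (-0.45 to -0.38). With sgDDX3 it went from 177 and 164 CPM to 113 and 116 CPM at day 3 (-0.57 ± 0.08; edgeR adjusted p = 0.00191). It was then at 119 and 115 CPM at day 14 (-0.54 ± 0.08; edgeR adjusted p = 0.00220), and passed in every alternative at both days. With sgDDX3, 3 of 36 genes fell by day 3 (3.83% of all genes fell and 3.73% rose). By day 14, 3 fell and PSME1 rose (3.09% and 4.69%). PSMD13 apart, each of these calls was lost without any 1 of the 4 libraries compared. These were PSMB2 (-0.38 to -0.36 in those fits) and PSMD3 (-0.39 to -0.29) at day 3, and PSMB1 (-0.34 to -0.27), PSMC4 (-0.42 to -0.27) and PSME1 (0.31 to 0.40) at day 14. With sgGal4 at day 3 edgeR passed 0 of 36 (0.561% of all genes fell and 0.703% rose), and DESeq2 passed PSMB2. At an unadjusted p of 0.05, 9 were lower, again without a share of all genes at that p.

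Genes that work with the proteasome are given from 4 lists, and their RNA counts stand against 6.39% of all genes lower and 7.68% higher at day 3, and 6.18% and 8.44% at day 14. Of 8 assembly chaperones, PSMD10, a chaperone of the 19S base also called gankyrin, was the 1 that was lower in RNA at day 3 (-0.33 ± 0.08; edgeR adjusted p = 0.00831). At day 14 PSMG2 (-0.43 ± 0.10; edgeR adjusted p = 0.00425) and PSMG4 (-0.35 ± 0.08; edgeR adjusted p = 0.00454), chaperones of the alpha ring, were lower. Of 13 associated factors, the proteasome-bound deubiquitinases USP14 (-0.32 ± 0.09) and UCHL5 (-0.27 ± 0.08) were lower at day 3 and the ubiquilin UBQLN4 (0.33 ± 0.07) was higher, and the inhibitor PSMF1 (-0.26 ± 0.07) was lower at day 14. Each of these calls was lost in at least 1 fit without a library of its comparison: PSMD10 without sgGal4 replicate 2 (-0.32), PSMG2 and PSMG4 without sgGal4 replicate 2 (-0.38 and -0.32), USP14 (-0.33), UCHL5 (-0.23) and UBQLN4 (0.31) without sgGal4 replicate 1 and PSMF1 without sgDDX3 replicate 1 (-0.24).

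Of 7 genes of the NRF1 pathway, MAFG, a partner of NRF1 on DNA, was the 1 that passed at day 3 (0.26 ± 0.08), against 7.68% of all genes higher, and did not pass once sgDDX3 replicate 2 was left out (0.19). NFE2L1 itself did not differ detectably in RNA at day 0 (0.10 ± 0.07), day 3 (0.12 ± 0.07) or day 14 (-0.12 ± 0.07). It was at 163 and 157 CPM with sgDDX3 and 150.5 and 143.6 CPM with sgGal4 at day 3. With time NFE2L1 rose in both lines, from 118 and 119 CPM at day 0 to 150.5 and 143.6 CPM at day 3 with sgGal4 (0.31 ± 0.07; edgeR adjusted p = 0.00936), a call lost without sgGal4 day 0 replicate 1 (0.29), and by 0.34 ± 0.07 with sgDDX3 (edgeR adjusted p = 0.00121).

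Of 14 genes of ubiquitin and the p97 complex, 2 were lower and 1 was higher in RNA at day 3, and 1 was lower and 3 were higher at day 14. The polyubiquitin gene UBB (-0.33 ± 0.10) was among the lower genes at day 3, and NPLOC4, a p97 cofactor, was the higher one (0.24 ± 0.07). At day 14 the ubiquitin-activating enzyme UBA1 (0.32 ± 0.08), p97 itself, VCP (0.34 ± 0.11), and NPLOC4 (0.27 ± 0.07) were higher. In footprints 3 of the 14 were higher at day 14, against 2.11% of all genes. VCP was then at 262.5 and 248 CPM with sgDDX3 and 159.9 and 165 CPM with sgGal4 (0.65 ± 0.13; edgeR adjusted p = 0.0189), and UBA1 (0.46 ± 0.09; edgeR adjusted p = 0.0182) was higher too. The day 14 calls were lost without sgGal4 replicate 1 in RNA for UBA1 (0.25), VCP (0.36) and NPLOC4 (0.27), and in footprints without any of the 4 libraries for VCP (0.61 to 0.69) and UBA1 (0.39 to 0.51). At day 3 those of UBB (-0.33) and NPLOC4 (0.20) were lost without sgGal4 replicate 1.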

How the data were processed

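The values deposited by the authors are raw counts, whole numbers with a row for each gene and a table for each assay. The tools named in the submitters' processing notes are STAR 2.7.5a, Bowtie2 2.4.1, cutadapt 3.4 and DESeq2, and the build named is GRCh38. Not given in the sources used here are how multiply aligned reads were treated, the strand setting, the annotation and the counting tool. Of 58037 rows, 45 copies of pseudoautosomal genes on the Y chromosome were left out, and 56948 of the remaining 57992 genes (98.2%) had a symbol.

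Counts were tested with edgeR 4.0.16 (R 4.3.3, limma 3.58.1) by the quasi-likelihood F-test after TMM scaling (trimmed mean of M values) in each assay. filterByExpr (minimum count 10) left 18287 genes in RNA, 19780 in footprints and 14853 in both. A fit took in the 12 libraries of an assay together, so that all groups shared an estimate of the spread. Translational efficiency was the interaction of guide and assay over all 24 libraries. Adjusted p-values are Benjamini-Hochberg values over all genes tested, and a gene passed below 0.05. For counts at an unadjusted p of 0.05 the share of all genes was not taken. Such counts cannot show whether more proteasome genes reached that p than genes at large. CPM are counts per 1000000 of the scaled library, except the marker levels, which are per total count. Standard errors are the log2 difference divided by the square root of F. The scripts were tested on simulated data.

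Alternatives were DESeq2 1.42.0, its size factors within edgeR, no low-count filter, a replicate block, and leaving out each library of the compared groups. Summed levels were also taken per total count and with pseudogene counts added. Tables and figures used Python 3.11.15, pandas 2.3.3, numpy 2.4.6 and matplotlib 3.10.9. The libraries of a group differed by more than sampling noise (chi-square per degree of freedom 2.213 to 9.751), so none was a copy.

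The genes and the lists of related genes were chosen with earlier results of these data known, so their agreement with those results is no independent support. Genes given with full statistics were, in each role group, up to 3 that passed with the smallest p and, where none passed, the 1 with the smallest p. Also named were genes that passed in a change between days or whose RNA difference at day 3 had the opposite sign to the median, up to 3 of each list of related genes, and NFE2L1. Others were named where a count or a set turns on them. Some genes of these lists are not reported here. Protein and transcript lengths were not used here, so levels were not compared between genes.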

Additional observations from a re-analysis of the deposited data

Results flagged for a closer look

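A change of the difference between the guides from 1 day to another was tested as an interaction, and 2 proteasome genes and DDX3X passed. In RNA from day 0 to day 3 the log2 difference changed by -0.42 for PSMB3 and by -0.38 for PSMD4. Both calls were lost with a replicate block. For DDX3X it changed by -2.08 in RNA and by -1.93 in footprints from day 0 to day 3. From day 3 to day 14 the DDX3X difference changed by 1.57 in RNA and by 1.43 in footprints. Groups of 2 libraries are too small for a search for outlying samples.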

How the results depend on the processing

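Each count of proteasome genes that passed was recomputed with DESeq2, its size factors, no low-count filter, a replicate block and without each library in turn, and none of the calls reversed its sign. With a replicate block, 3 genes in place of 5 passed from day 0 to day 3 in sgGal4 RNA and 0 in place of 2 for the change of the guide difference from day 0 to day 3; it moved no other count by over 1.5 times. Replicate numbers are not known to pair the libraries: the correlation of replicate differences between groups of an assay ran from -0.26 to 0.22. For sgGal4 footprints the count from day 0 to day 3 was 1 without the low-count filter and 1 with DESeq2 in place of 0, and from day 0 to day 14 it was 4 and 2 in place of 1. Per total count, the summed level was 96.4% of the control in RNA at day 0, and 94.5% and 90.8% in footprints at day 0 and day 3. With 1 library left out, a fit assumes that the lone library varies like the other groups. Counts in RNA then ran from 5 to 11 (guides, day 3), 4 to 13 (guides, day 14), 0 to 2 (sgGal4, day 0 to 3), 1 to 3 (sgGal4, day 0 to 14), 11 to 18 (sgDDX3, day 0 to 3) and 0 to 2 (guide difference, day 0 to 3). In footprints they ran from 0 to 2 (sgGal4, day 0 to 14) and 1 to 3 (sgDDX3, day 0 to 3), and were 1 throughout for sgDDX3 from day 0 to 14. Differences that did not pass changed sign in fits without 1 library, over which they ran from -0.00899 to 0.197 for PSMA5 (RNA guide difference, day 3 to 14), -0.132 to 0.0748 for NFE2L1 (footprints, day 3), -0.406 to 0.114 for PSMA4 (footprints, day 14), -0.0132 to 0.245 for POMP (efficiency, day 0), -0.00164 to 0.414 and -0.0701 to 0.334 for DDX3X (efficiency, day 3 and day 14) and -0.00207 to 0.261 for PSMA7 (efficiency, day 3 to 14). The cause was not tested, apart from the fewer samples in these fits. The precision is limited by 2 libraries a group and, for PSMB9 and the pseudogene-rich genes, by few counts.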

Other observations

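PSMA2, an alpha subunit, had 4050 RNA counts and 53 footprint counts over the 12 libraries of each assay, while its 3 pseudogene rows held 56 RNA counts and 1395 footprint counts. Its RNA was at 16.0 and 12.2 CPM with sgDDX3 against 17.2 and 21.0 CPM with sgGal4 at day 3 and did not pass (-0.36 ± 0.17 SE). For PSMC1, an ATPase, the 13 pseudogene rows held 10761 footprint counts against 3838 on the gene. In both genes the share of footprints on pseudogene rows was larger than that of RNA reads.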
